A study of Mus musculus with 8 samples.

Results

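Translation initiation, elongation and release factors, together with the aminoacyl-tRNA synthetases that charge tRNAs with amino acids, were followed here through their own ribosome footprints in mouse liver. Members were chosen by gene symbol alone: symbols that begin with Eif or Eef (without Eefsec, which serves selenocysteine), the synthetase symbols made of 1 letter and ars or ars2, and Eprs, Farsa, Farsb, Etf1, Gspt1 and Abce1. This gave 74 genes among the 7500 with a line in the authors' table, namely 47 factors or their regulators, 15 cytosolic synthetases and 12 mitochondrial synthetases. Lists of these families hold 110 symbols, some of them alternate names of 1 gene. The other 36 were not analysed here, as the table has no line for them. Among them were Eef1a1, Eif4g1, Eif2s2, Eif5, Eif3c, Abce1, Eprs, Mars and Vars, so several central factors are missing from the account.

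The footprints came from livers of male wild-type FVB/N mice, weaned at 3 weeks of age onto a torula yeast diet low in selenium. The group 0 Se received no added selenium and the group 0.1 Se received 0.1 ppm as sodium selenite, each for 6 weeks. Each diet had 2 mice and 4 libraries, 8 libraries from 4 mice in all. The study asked how dietary selenium changes gene expression and translation. The abundance analysed here is the authors' average for each gene over the libraries of both diets. There is therefore 1 value per gene, with no SD, no n and no value for a single mouse, and no difference between 0 Se and 0.1 Se is described or tested. Depth per library is unknown, and so is the spread by which neighbours in an order of genes could be told apart.

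In eukaryotes, eIF2 carries the initiator tRNA to the small ribosomal subunit, to which eIF3 also binds. The eIF4 proteins bring that subunit to the capped end of the mRNA. Elongation factors then deliver charged tRNAs and move the ribosome along, and release factors free the finished protein at the stop codon. Liver makes most plasma proteins and so keeps this machinery active. A ribosome protects a stretch of mRNA of about 30 bases from nuclease, and a count of these footprints measures how many ribosomes were on a coding sequence. Levels are given below as footprint density, the CPM (counts for every 1000000 counted) divided by the kilobases of coding sequence over which the authors counted. No mRNA level was used here, so the amount of an mRNA and the ribosomes on each copy of it cannot be told apart.

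The sequence around the start codon is shown first for members whose start differs in kind and for those of highest footprint density. The first codon is where the initiation factors act. Capitals mark the base 3 before the start codon, the start codon itself and the base after it. An A or G at the first of these positions is known to favour initiation. The sequences are those of GENCODE vM1 transcripts, with positions on NCBIM37 (mm9).
Eif5a, on the minus strand at chr11:69732814-69732826: cctcttAaaATGG
Eif4a1, on the minus strand at chr11:69485800-69485812: ctaaggAtcATGT
Eif1, on the plus strand at chr11:100181435-100181447: tcgtatCgtATGT
Eif1b, on the plus strand at chr9:120401920-120401932: tagtgtCgcATGT
Eif4g2, on the minus strand at chr7:118225058-118225070: gccgccAaaGTGG
Tars, on the minus strand at chr15:11329291-11329303: ggtcctTccATGT
Gars, on the plus strand at chr6:54988027-54988039: ggcgtgCtcATGC
Yars, on the plus strand at chr4:128867143-128867155: gctcagCtgATGC

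Eif1 and Eif1b encode the factor that holds the scanning ribosome back from poor start codons, and both carried a C at the position 3 bases before their own start. Eif4g2, a relative of the cap-binding scaffold that lacks the part that binds the cap-binding protein, was the member that began with GTG in place of ATG. Of the 70 members with a matched transcript and an ATG start, 58 had A or G at that position (82.9%), against 87.5% of the 6902 other genes with a value. The 12 with C or T were Eif1, Eif1b, Eif6, Eif3b, Eif2ak3, Eif2c3 and the synthetases Nars, Tars, Gars, Yars, Ears2 and Vars2. Median footprint density was 43.0 CPM per kb in these 12 and 35.1 in the 58. In the other genes it was 7.75 with C or T, in 862 genes, and 12.1 with A or G, in 6040. These starts, each from the matched transcript, were examined after the densities were known. Other start codons of the same gene were not examined. An effect of the start sequence on translation was not tested.

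The members as a whole lay above most genes of the table. Their median footprint density was 36.0 CPM per kb, against 11.3 over all 7500 genes, and 59 of the 74 exceeded that table median. The middle member stood at percentile 74.2 of the table, and 34 members were above its upper quartile of 37.5. The 3 groups differed in level. The median was 52.3 CPM per kb for the 47 factors and regulators, 35.6 for the 15 cytosolic synthetases and 7.04 for the 12 mitochondrial synthetases. The 54 cytosolic ribosomal proteins with a line had a median of 186 CPM per kb and the 54 mitochondrial ribosomal proteins one of 51.0. In bulk tissue, fewer cells of a type and less RNA per cell cannot be told apart.

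**Figure D1:**
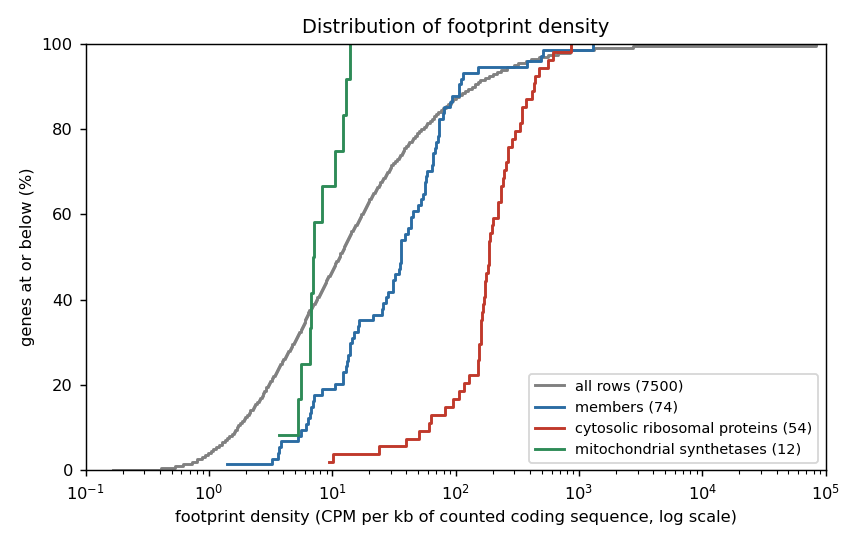
Share of genes, in percent, at or below each footprint density, in CPM per kb of counted coding sequence on a log axis, for all 7500 genes, the 74 members, 54 cytosolic ribosomal proteins and 12 mitochondrial synthetases. The curve of the members lies to the right of that of all genes through its middle, with medians of 36.0 and 11.3, and crosses it among the denser genes. At or below 111 lie 91.9% of the members, while 88.5% of all genes lie at or below 113. The mitochondrial synthetases end at 14.1.

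Together the members took 6434 CPM, 0.751% of the footprints on genes with a line. Eif5a, Eef2 and Eif4a1 alone held 32.2% of that. The tissue read as liver: 5 of 6 hepatocyte markers had a value, between 780 and 51734 CPM per kb, and albumin mRNA held 10.7% of the listed footprints. Markers of other liver cells were low beside these, with summed densities of 295 for 4 Kupffer cell genes, 48.7 for 3 endothelial genes, 20.4 for 3 stellate cell genes and 1.73 for the cholangiocyte gene Krt19. The hepatocyte marker Cps1, the cholangiocyte marker Epcam and both red cell globins had no line. The lines of the table sum to 857014 CPM, 85.7% of 1000000, so the percentiles refer to the listed genes only.

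**Figure D2:**
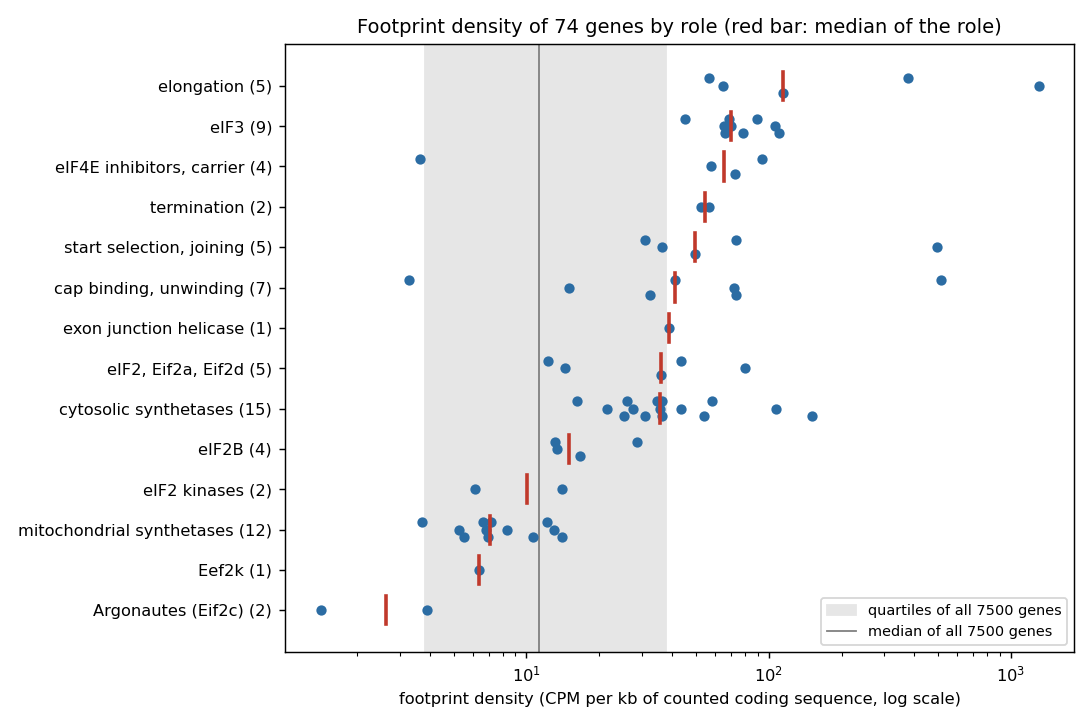
Footprint density of each of the 74 members, in CPM per kb on a log axis, by role, with the number of members in brackets, the median of each role as a red bar, and the median of all 7500 genes and the range between their quartiles as a grey line and band. Elongation factors and eIF3 subunits lie above the band, while the mitochondrial synthetases lie between 3.69 and 14.1.

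The densities depend on the isoform counted, according to the study's methods the longest RefSeq one of each gene. GENCODE lists a longer coding sequence for Tars2, and slightly longer ones for Eif2b3, Eif4g3 and Wars. For 18 members GENCODE lists a complete coding sequence under 0.67 or over 1.5 times the counted length, and the part each isoform has in the footprints is not known. Were all footprints of a gene on its shortest listed coding sequence, Wars would have 628 CPM per kb in place of 27.5, Eif2a 203 in place of 14.4, Eif4g3 108, Farsa 92.1, Eef2k 67.2 and Eif2ak3 50.7. Eif4a1 would then have 970, Eef1b2 481, Eif6 281, Eif3m 170 and Eif2b3 27.5. Some of these sequences are very short. They have 120 bases in Wars, 180 in Eif2a and 261 in Eef2k, against 1428, 1746 and 2175 in the isoforms counted. Whether they are translated was not tested.

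Elongation held the densest member. Eif5a, the factor that helps ribosomes through difficult peptide bonds such as runs of proline, reached 1303 CPM per kb and ranked 79 of 7500. Eef2, the GTPase that moves the ribosome on by a codon, had 376 CPM per kb. Because its coding sequence is longer, Eef2 had more footprints than Eif5a, 946 against 528 CPM, while per length Eif5a was 3.46 times higher. Both paralogues Eef1a1 and Eef1a2, which bring charged tRNAs to the ribosome, had no line, as had Eif5a2.

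The 3 subunits of eEF1B, which reloads that tRNA carrier with GTP, were Eef1b2 with 114 CPM per kb, Eef1d with 65.0 and Eef1g with 56.5. The footprints of Eef1d were counted over 1923 bases of the longest isoform, and GENCODE also lists one with a coding sequence of 846 bases. If all footprints came from the shorter one, the density of Eef1d would be 159 CPM per kb, the highest of the 3. Eef2k, the kinase that inhibits eEF2, had 6.39 CPM per kb over its longest isoform, below the table median.

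Among the initiation factors, the helicase Eif4a1 and the start codon factor Eif1 stood apart from the rest. Eif4a1, which unwinds the leader of the mRNA, had 516 CPM per kb, 7.05 times the 73.2 of the cap-binding protein Eif4e. Its paralogue Eif4a2 had no line. Eif4b, which stimulates the helicase, had 71.6 CPM per kb. Eif4g2 followed with 41.1, and Eif4g3, a scaffold that joins cap and helicase, had 15.05. Eif4g1 had no line.

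The relatives of the cap-binding protein were ordered by density. Eif4e2, which binds caps in repression of mRNAs, had 32.5 CPM per kb, and Eif4e3 had 3.27 from an abundance of only 1.85 CPM, the lowest of any member. Eif4e exceeded Eif4e2 2.26 times and Eif4e3 22.4 times. The inhibitors that hold Eif4e away from the scaffold were Eif4ebp2 with 94.0 CPM per kb, Eif4ebp3 with 72.9 and Eif4ebp1 with 57.8. Their sum of 225 was 3.07 times the density of Eif4e, a ratio computed after the values were seen. Eif4enif1, the protein that carries Eif4e into the nucleus, had 3.63 CPM per kb.

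The value of Eif4ebp3 carries a limit of counting. Of its 30-base windows, 63.9% also occur in transcripts of Ankhd1, and reads that fit several genes were left out by the authors. Were only its other windows able to collect reads, its density would be 202 CPM per kb. The exon junction helicase Eif4a3, which marks spliced mRNAs, shares 44.3% of its windows with other annotated genes, and its 38.8 CPM per kb would become 69.8. Whether the authors' gene set held those other genes was not tested.

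Start codon selection and subunit joining were led by Eif1 with 494 CPM per kb. Its paralogue Eif1b, of the same counted length, had 73.2, so the ratio was 6.75. The limit is widest here: 84.0% of the windows of Eif1 occur in other annotated genes, mainly Gm16378, and its density over the remaining windows alone would be 3092 CPM per kb, above that of Eif5a. Eif1b shares almost none of its windows with other genes by exact match. The authors allowed 2 mismatches, so reads of close paralogues could be lost even where no window is identical. Eif6, which keeps the large subunit from joining too early, had 49.7 CPM per kb, and Eif5b, the GTPase that joins the subunits, had 36.1. Eif1a, whose protein keeps the scanning ribosome open, had 30.9, with 32.5% of its windows shared with other genes.

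Of the eIF2 complex, Eif2s1, the alpha subunit that the stress kinases phosphorylate, had 80.3 CPM per kb. The gamma subunit, which binds GTP and the initiator tRNA, has a gene on X and one on Y. Eif2s3x had 43.5 CPM per kb and Eif2s3y had 35.8 in these male mice. Their sum of 79.4 was 0.989 times the density of Eif2s1, a comparison made after the values were seen, and without a value for the beta subunit Eif2s2, which had no line. No transcript was matched to Eif2s3y, so its shared windows were not counted. The authors allowed 2 mismatches and kept unique alignments, so reads that fit both paralogues could be lost. The densities of Eif2s3x and Eif2s3y, and their sum, could thus be too low by an unknown amount. A pair of genes whose proteins can bring tRNAs to the ribosome without eIF2 had lower values, Eif2a with 14.4 and Eif2d with 12.2.

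The exchange factor eIF2B, which reloads eIF2 with GTP, was lower than its substrate in each of its 4 measured subunits. Eif2b4 had 28.5 CPM per kb, Eif2b2 had 16.6, Eif2b5, the catalytic subunit, had 13.4 and Eif2b3 had 13.2. The lowest eIF2 subunit, Eif2s3y with 35.8, was above the highest eIF2B subunit. The eIF2 kinases were lower still in the median. Eif2ak1, the kinase that responds to low heme, had 14.0 CPM per kb and Eif2ak3, the kinase of the endoplasmic reticulum, had 6.15, while Eif2ak2 and Eif2ak4 had no line.

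Of eIF3, 9 subunits had a value, all above the table median. Eif3k had 111 CPM per kb, Eif3m 107, Eif3l 89.6 and Eif3a, the largest scaffold subunit, 78.5. Eif3i had 69.7, Eif3b 68.7, Eif3d, which can itself bind caps, 65.8, Eif3e 65.1 and Eif3f 45.2. The highest subunit was thus 2.45 times the lowest, although their counted lengths run from 597 bases in Eif3k to 3975 in Eif3a. Eef2 was 5.39 times the eIF3 median of 69.7.

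The pair of release factors was closer. Gspt1, the GTPase eRF3, had 56.8 CPM per kb and Etf1, which reads the stop codon as eRF1, had 52.3, a ratio of 1.08. Abce1, which splits the ribosome afterwards, had no line. Eif2c2 and Eif2c3 match the rule only by older symbols, since they encode Argonaute proteins of microRNA silencing and not initiation factors. With 3.87 and 1.41 CPM per kb they were among the 5 least dense members.

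**Figure D3:**
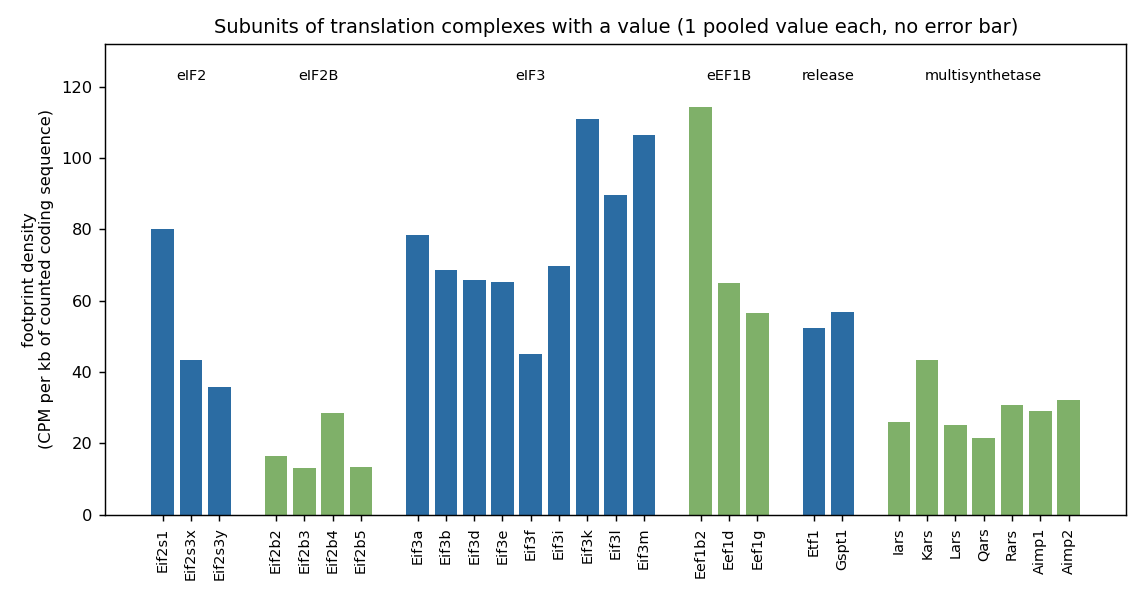
Bars give the footprint density, in CPM per kb from 0, of each measured subunit of eIF2, eIF2B, eIF3, eEF1B, the release factors and the multisynthetase complex, 1 pooled value per gene and so without error bars; colours only separate neighbouring complexes. Subunits of eIF3 range from 45.2 to 111, those of eIF2B from 13.2 to 28.5 and those of the multisynthetase complex from 21.6 to 43.4.

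Within complexes, the highest subunit exceeded the lowest by 2.45 times in eIF3, 2.24 times in eIF2, 2.16 times in eIF2B and 2.03 times in eEF1B. The eEF1B value takes Eef1d over its longest isoform. Over the coding sequence of 846 bases, Eef1d would have 159 CPM per kb and be the highest of eEF1B. On the shortest listed isoforms the highest subunit was 3.76 times the lowest in eIF3 and 8.51 times in eEF1B. In the multisynthetase complex, an assembly of cytosolic synthetases and scaffold proteins, the highest was 2.01 times the lowest over the counted lengths. There 7 of 11 components had a value, Kars 43.4, Aimp2 32.2, Rars 30.8, Aimp1 29.0, Iars 25.9, Lars 25.2 and Qars 21.6 CPM per kb. Aimp1 and Aimp2 are its scaffold proteins and no members of the rule. The median was 25.9 for the 5 synthetases of the complex and 36.3 for the 10 others, whose range of 16.2 to 151 takes in the whole of the first group. Farsb and Farsa, the subunits that make up the phenylalanine enzyme, had 35.6 and 16.2, a ratio of 2.197. The groupings by complex membership and by subunit pair were made after the values were seen, except for the complex as a whole.

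Nars and Aars, the asparagine and alanine enzymes, were the densest synthetases with 151 and 107 CPM per kb. Tars followed with 58.6, Sars with 54.0, and Kars with 43.4. Gars, Yars, Farsb and Hars lay within 34.5 to 36.3. Rars, Wars, Iars and Lars lay within 25.2 to 30.8, and Qars with 21.6 and Farsa with 16.2 were lowest. Gars and Kars also supply the mitochondrial enzyme from the same gene. All 15 were above the table median.

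Each cytosolic synthetase was denser than every mitochondrial one with a value, over the lengths the authors counted, the nearest being Farsa with 16.2 and Nars2 with 14.1. Mitochondrial synthetases are encoded in the nucleus, made by cytosolic ribosomes and imported to serve the few proteins that mitochondria make themselves. After Nars2 came Tars2 with 13.01, Hars2 with 12.2 and Yars2 with 10.6. Rars2 had 8.29, Ears2 7.12, Sars2 6.96 and Lars2 6.602. The lowest were Cars2 with 5.54, Wars2 with 5.24 and Vars2 with 3.69. Only Nars2, Tars2 and Hars2 exceeded the table median of 11.3. Tars2 was counted over a coding sequence of 1272 bases, and with the longest one that GENCODE lists, of 2172 bases, its density would be 7.46. The order is not fixed across isoforms: on their shortest listed coding sequences Vars2 would have 68.7, Cars2 and Yars2 23.8 each and Ears2 17.8, above the 16.2 of Farsa as counted. The shortest of Vars2 has only 228 bases, against 3183 in the isoform counted. With the shortest used for every gene, Farsa included, 1 mitochondrial enzyme, Vars2, exceeded the lowest cytosolic one, then Lars with 25.2, and the cytosolic enzyme was higher in all 8 pairs with both forms.

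For 8 amino acids both enzymes had a value, and the cytosolic one was higher in each. The ratio was 10.7 for asparagine (Nars 151, Nars2 14.1), 7.76 for serine (Sars 54.0, Sars2 6.96) and 5.25 for tryptophan (Wars 27.5, Wars2 5.24). It was 4.50 for threonine, 3.81 for leucine, 3.72 for arginine, 3.42 for tyrosine and 2.83 for histidine (Hars 34.5, Hars2 12.2). The median ratio was 4.16.

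**Figure D4:**
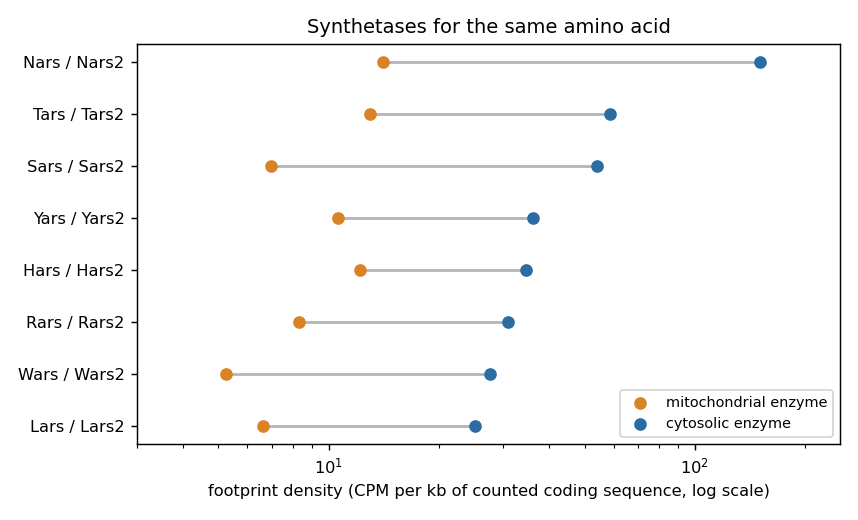
Footprint density, in CPM per kb on a log axis, of the cytosolic (blue) and mitochondrial (orange) synthetase of the same amino acid for 8 amino acids, joined by a line. The cytosolic enzyme is to the right in all 8 pairs, by 2.83 times for histidine up to 10.7 times for asparagine.

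Synthetase density was then set beside the use of each amino acid. Use was the share of an amino acid among those being added, from the composition of 7093 proteins, each weighted by its CPM. This set held 98.2% of the listed footprints. It ran from 1.22% for tryptophan to 9.91% for leucine. Across the 14 amino acids with a cytosolic enzyme, Pearson's r was 0.0804 and Spearman's rho 0.231. The points share the same pooled libraries, and no test was made. With the shortest listed coding sequence of each gene, rho was -0.244, so its sign depends on the length taken. That sequence has 120 bases for Wars, counted over an isoform of 1428, and 318 for Farsa, counted over 1527. Whether such short sequences are translated was not tested. Without Nars and Aars, a choice made after seeing the values, r was 0.222 and rho 0.329 over 12. The density per percent of use was lowest for Lars, 2.54, and highest for Nars, 40.2, with Wars next at 22.5. Leucine, the amino acid used most, thus had the third lowest synthetase density of the 14.

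**Figure D5:**
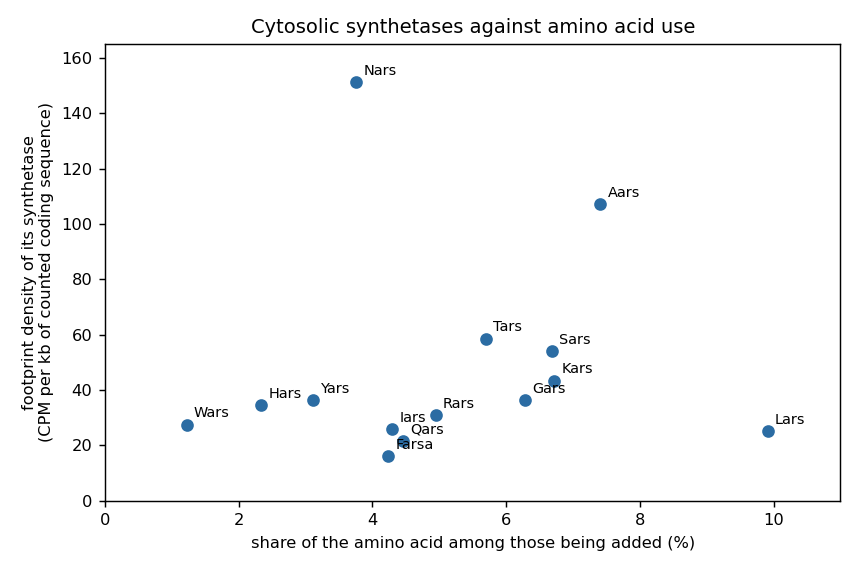
Footprint density of 14 cytosolic synthetases, in CPM per kb, against the share, in percent, of their amino acid among those being added; each point is an enzyme, the phenylalanine enzyme being shown by Farsa. Nars, 151 at a use of 3.76%, and Aars, 107 at 7.41%, lie above the others, and Lars lies at 25.2 with the highest use, 9.91%.

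Messages of the translation machinery often begin with a terminal oligopyrimidine tract, a C followed by a run of C or T at the first base of the mRNA, through which growth signals control them. A start site of this kind, C and then at least 4 C or T with no other base between, was sought on the sense strand at the RefSeq start sites, whose positions are on GRCm38.p6. It was present in 3 of the 53 members with a start site (5.66%), in 9 of 41 cytosolic ribosomal proteins (21.95%) and in 170 of all 5656 genes with one (3.01%). The 3 are shown with 10 bases before the start site, and capitals mark the run.
Eif2s3x, on the minus strand at chrX:94212632-94212661: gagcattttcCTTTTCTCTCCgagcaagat
Eif3f, on the plus strand at chr7:108934405-108934434: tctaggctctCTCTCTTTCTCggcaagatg
Wars2, on the plus strand at chr3:99141080-99141109: cggccccgccCTTCTCaagatggcgctgtt
The run was 11 bases long in Eif2s3x and Eif3f and 6 in Wars2, whose densities were 43.5, 45.2 and 5.24 CPM per kb. A start site that is off by a base would hide such a run, so its lack in the rest says only that these letters were not at the listed position.

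Other cytosolic proteins of translation outside the rule had a value for 6 of 11 listed genes. Pdcd4, an inhibitor of the helicase Eif4a1, had 160 CPM per kb, about as dense as Nars and Eif4a1 itself was 3.23 times denser. Pabpc1, which binds poly(A) tails and the scaffold of the cap complex, had 86.6. Denr, which recycles small subunits, had 43.3. Pelo and Hbs1l, which rescue stalled ribosomes, had 21.2 and 18.7, and Gcn1l1, a sensor of stalled ribosomes, had 15.4. Their median was 32.2 CPM per kb, against 36.0 for the members.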

How the data were processed

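Livers of 4 mice (2 on 0 Se, 2 on 0.1 Se) gave 8 ribosome footprint libraries, grouped by sample title. According to the study's methods, the authors trimmed adapters with the FastX toolkit, removed reads of ribosomal RNA, and aligned the rest with Bowtie to the longest RefSeq isoform of each gene (mm9), allowing 2 mismatches and keeping unique alignments, leaving 15 codons at the beginning and 3 at the end uncounted. Averages per gene were made by the authors in edgeR. The submitters' processing notes also name Bowtie and mm9. No version is given in the sources used here for any of these tools.

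The deposited table holds 7500 genes. Its log2 CPM is 1 average per gene that the authors made over all libraries, from 0.17 to 16.48. Its length column is in bases. For 7093 of the 7260 genes with a GENCODE symbol (97.7%) it was 60 bases under an annotated coding sequence. It was therefore taken to leave out the trimmed codons already. The 15 and 3 codons named in the methods come to fewer than 60 bases, and the remainder was not accounted for. Its other columns (log2 fold change, fold change, p-value and false discovery rate between the diets) hold the authors' own comparison and were not used. No counts per library were used, so the planned test of diet could not be made, depth per library is unknown, and counting error cannot be given. Only a higher log2 CPM says that more reads lie behind a value. It was at least 3 in 71 members. The authors required more than 1 CPM of a gene in 3 or more libraries. This filter can leave out low genes, but does not account for an abundant one such as Eef1a1, and why such a gene has no line is not known.

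CPM was recovered as the power of 2 and divided by kilobases to give density (Python 3.11.15, numpy 2.4.6, pandas 2.3.3). Percentiles are among the listed genes. Of the 74 members, 72 matched a GENCODE vM1 transcript (not Eif2s3y or Eif4g3), used for start codons and for 30-base windows shared with other genes. Windows counted as shared only if identical, without the 2 mismatches that the authors allowed. Start sites came from RefSeq on GRCm38.p6. Amino acid use weighted each protein by its CPM. The calculations were tested on simulated data. Members and lists were chosen with earlier results of these data known. Named were all members of roles with up to 6 genes, every eIF3 subunit, synthetases with both forms, paralogues, and the 3 highest and 3 lowest of longer lists. Further synthetases were named after their values were seen. Alternatives changed the length (isoforms included), a filter on low values, the denominator and the genes included. The value of 1 member is not reported here by name.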

Additional observations from a re-analysis of the deposited data

How the results depend on the processing

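Neither replicate spread nor depth was available, so a value was taken as kept when it stayed within 1.5-fold, or within 0.1 for the correlation. By that measure 90 of 100 alternative values of role medians, ratios, spreads, shares and the correlation were kept. Single genes were not among them, and those with shared windows or other isoforms moved further. Several settings could move few values beyond that limit. The whole length adds only 60 bases per gene, 68 members have over 94% unique windows, and 71 pass the filter on low values. The 90 kept values are thus no measure of robustness. Of the 10 values not kept, 9 came from the shortest complete coding sequence that GENCODE lists for each gene, added after seeing the data. With it the medians in CPM per kb were 376 for elongation, 71.9 for cap binding, 60.6 for eIF2 with Eif2a and Eif2d, 32.3 for the eIF2 kinases, 13.8 for the mitochondrial synthetases and 4.29 for the Argonautes, the spread was 8.51 times in eEF1B and 3.76 times in eIF3, and rho between synthetase density and amino acid use was reversed, -0.244. The longest listed coding sequence kept all 19. That Spearman's rho also fell from 0.231 to 0.0839 without Gars and Kars, a choice made after seeing the data; with Farsb in place of Farsa it was 0.196. The share of footprints on the members was 0.643% of 1000000 CPM, 1.04% without the 10 most abundant genes and 0.640% without Eef2. A filter at log2 CPM of 3 lowered the members' median percentile from 74.2 to 61.6, since it removes low genes from the table, and the cap-binding median rose from 41.1 to 56.3 when Eif4e3 left. The Argonaute median was not recomputed under it, as only Eif2c2 remained. Counting only windows unique to a gene drops Eif2s3y and Eif4g3, and moved the median of eIF2, Eif2a and Eif2d from 35.8 to 29.0 and that of cap binding from 41.1 to 56.3. With the whole coding length, added after seeing the data, the eIF4E inhibitor and carrier median was 53.3 in place of 65.3. The length less the trimmed codons was not run, since the deposited length already leaves them out, and Eef1a1 has no line. Leaving out a mouse, DESeq2 and a count filter were not run, for want of values per library. No paired analysis was possible because each diet has its own mouse numbers and the table has no value per mouse.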

Other observations

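In the median over the counted lengths, factors that serve the mitochondrial ribosome were denser than the synthetases that serve it. Among these factors, Tufm, Gfm2 and Mtfmt had no line. Of 9 listed genes, 6 had a value, with a median of 33.1 CPM per kb, against 7.04 for the 12 mitochondrial synthetases and 51.0 for the 54 mitochondrial ribosomal proteins. Mtif3, an initiation factor, had 37.9, Gfm1, the factor that moves the ribosome, 36.9, Mrrf, which recycles it, 34.9, and Tsfm, which reloads the tRNA carrier, 31.2. Mtif2, which brings the initiator tRNA, had 12.4 and the release factor Mtrf1l 6.51. So 4 of the 6 were above the densest mitochondrial synthetase, Nars2 with 14.1. This comparison was chosen after the values were seen, and with 1 pooled value per gene it was not tested. On the shortest listed coding sequences the synthetase median was 13.8 CPM per kb, and no such value was computed for these factors.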
